A study of Mus musculus with 2 samples.

Results

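The genes described here are 8 interferon regulatory factors, Irf1, Irf2, Irf3, Irf4, Irf5, Irf7, Irf8 and Irf9, a family of DNA-binding proteins. They were chosen by name, and all 8 of the 8 listed had a row among the 27998 genes of the tables. They were followed through a pair of droplet single-cell RNA libraries of mouse bone marrow, each a single library from a pool of 3 naive mice of C57BL/6 background. The Car1-GFP library held CD45+ cells sorted for the green fluorescent protein of Car1-GFP reporter mice, in which GFP marks cells that use Car1, a carbonic anhydrase gene of early erythroid cells. The marrow library held CD45+ cells of unmodified mice that lacked CD3, a T cell marker, and Ly6G, a neutrophil marker. The ages and sexes of the mice were not given in the sources used here. With 1 library per group there was no spread between replicates and no test between groups, and the 95% intervals given below cover counting error only.

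All factors of the family share a DNA-binding domain that recognises GAAA repeats, the core of the interferon-stimulated response element in genes that interferons switch on. Irf3 and Irf7 act downstream of sensors of foreign nucleic acid and drive type I interferon genes. Irf9 is the DNA-binding subunit of a complex with Stat2 that forms after interferon receptors signal. Irf1 is induced by interferon gamma, and Irf2 binds the same sites and can oppose it. Irf5 acts below Toll-like receptors in myeloid cells, while Irf4 and Irf8 pair with Spi1, Spib or Batf proteins and shape lymphoid, dendritic and monocyte fates.

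After filtering, 2400 Car1-GFP cells with a median of 15512.5 UMIs (unique molecular identifiers, each counting 1 captured transcript) and 6268 marrow cells with a median of 1031 UMIs were kept, so the Car1-GFP cells were 15 times deeper. A level is the UMIs of a gene summed over a set of cells, divided by all UMIs of that set and multiplied by 1000000 (CPM). The chemistry reads the 3' end of transcripts, so levels of different genes are not compared with each other. A count of 3, used as the floor for genes with no UMI, equals 0.0701 CPM for Car1-GFP cells and 0.361 CPM for marrow cells. The kept cells of both libraries shared 13 barcode sequences. Each library was clustered without the Irf genes and without interferon-stimulated genes, and clusters were named from marker genes. S100a8, a calprotectin subunit of neutrophils, stood between 23.8 and 44.5 CPM in all Car1-GFP clusters but the one of 195 cells described below, and at 8720 CPM or more in every marrow class, erythroid cells included.

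The region upstream of each start site was read for interferon motifs in 250-base windows from RefSeq (GRCm38.p6). The searched motifs were GAAANNGAAA for the interferon-stimulated response element and TTCNNNGAA for the gamma-activated site of genes that respond to interferon gamma, on both strands. Of 32851 such windows, 978 (2.98%) held the first and 2306 (7.02%) the second. Among 13 interferon-stimulated genes of the list used below that had windows, 8 held the first and 3 the second. The windows of Irf8, Irf2 and Irf1 are shown because they were the 3 members with a match, and that of Irf7 because it is an interferon-inducible member without one. Capitals mark the motif matches, each line runs 5′ to 3′, and where a gene had several start sites the most upstream window is given.
Irf8, chr8:120736108-120736357, plus strand: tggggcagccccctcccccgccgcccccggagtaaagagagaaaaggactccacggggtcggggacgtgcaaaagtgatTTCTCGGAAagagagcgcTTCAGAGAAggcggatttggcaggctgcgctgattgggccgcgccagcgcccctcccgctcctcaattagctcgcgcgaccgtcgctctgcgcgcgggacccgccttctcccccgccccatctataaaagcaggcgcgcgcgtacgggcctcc
Irf2, chr8:46739495-46739744, plus strand: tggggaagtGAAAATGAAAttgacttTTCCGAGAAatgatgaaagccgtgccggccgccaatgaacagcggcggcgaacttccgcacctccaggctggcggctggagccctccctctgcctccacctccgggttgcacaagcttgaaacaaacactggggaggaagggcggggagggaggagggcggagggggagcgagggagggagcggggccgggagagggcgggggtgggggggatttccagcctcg
Irf1, chr11:53769764-53770013, plus strand: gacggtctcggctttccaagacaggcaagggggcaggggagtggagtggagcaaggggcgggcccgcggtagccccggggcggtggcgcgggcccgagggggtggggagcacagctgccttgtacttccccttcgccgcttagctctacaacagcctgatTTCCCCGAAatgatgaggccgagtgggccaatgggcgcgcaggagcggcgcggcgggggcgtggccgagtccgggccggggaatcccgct
Irf7, chr7:141266425-141266674, minus strand: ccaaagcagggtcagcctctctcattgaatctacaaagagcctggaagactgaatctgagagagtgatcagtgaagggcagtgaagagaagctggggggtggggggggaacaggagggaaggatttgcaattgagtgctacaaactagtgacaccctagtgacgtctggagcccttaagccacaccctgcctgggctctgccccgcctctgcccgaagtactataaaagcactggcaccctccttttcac
The Irf8 window held 2 gamma-activated sites, which began 171 and 153 bases before the start site. The Irf2 window held 1 response element, 241 bases before the start, and 1 gamma-activated site, 224 bases before it. The Irf1 window held 1 gamma-activated site 90 bases before the start. A match is a run of letters only, and binding was not measured.

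In the marrow library Irf8 had the highest level of one class over the rest among the members with over 100 UMIs. Irf8 (ENSMUSG00000041515, mm10 chromosome 8, 120736358 to 120756694, plus strand) is the factor that monocyte and dendritic lineages need and that holds back the neutrophil programme. It reached 2081 CPM (interval 1953 to 2215) in plasmacytoid dendritic cells, the main producers of type I interferon, and 167 CPM in the remaining marrow cells, a log2 ratio of 3.64 (3.52 to 3.76). These cells held 982 of the 2292 Irf8 UMIs, 42.8% of them, with 5.68% of all UMIs of the library. No other class had an interval that reached theirs.

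Below them came conventional dendritic cells at 406 CPM (305 to 530) and classical monocytes, the Ly6c2-high cells that leave the marrow, at 317 CPM (287 to 349). Stem and multipotent progenitors had 261 CPM (223 to 305), the Gngt2 Clec4a3 monocytes 242 CPM (204 to 284) and granulocyte-monocyte progenitors 232 CPM (208 to 260). Neighbours in that order had overlapping intervals, so the order of neighbours was not resolved. The intervals of conventional dendritic cells and classical monocytes lay above those of Gngt2 Clec4a3 monocytes and granulocyte-monocyte progenitors. B lineage cells followed at 168 CPM (105 to 255) and natural killer and innate lymphoid cells at 125 CPM (77.6 to 192), also with overlapping intervals. The class named natural killer and innate lymphoid was mixed. Of its 167 cells, 102 formed a sub-cluster with the T cell markers Cd3d and Cd3g among its leading genes, and 23 formed one led by Fcnb. When cells were clustered again, Irf8 in stem and multipotent progenitors varied beyond its interval. It ran between 85.5 CPM with at least 1000 UMIs per cell and 284 CPM at Leiden resolution 0.5. With the Irf and interferon-stimulated genes kept in the clustering it was 164 CPM.

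The lowest group was formed by late erythroid cells at 49.2 CPM (35.3 to 66.8), maturing neutrophils at 48.0 CPM (32.8 to 67.8), immature neutrophils at 45.1 CPM (35.9 to 56.0) and basophils and mast cells at 29.9 CPM (8.13 to 76.4). These 4 could not be told apart from each other. Ly6g was among the leading genes of the maturing neutrophils, although the marrow cells were sorted as lacking Ly6G. The class named late erythroid was not all late, since 168 of its 271 cells formed a sub-cluster led by Kit. After every cell was thinned to 1000 UMIs, an Irf8 UMI was seen in 70.4% of 98 plasmacytoid dendritic cells (60.3 to 79.2%), 26.0% of 626 classical monocytes and 18.4% of 539 granulocyte-monocyte progenitors. The same share was 4.07% of 246 late erythroid cells and 4.15% of 915 immature neutrophils. The part of free RNA in these low shares was not tested. The thinning left out 2997 marrow cells with fewer UMIs. Before it, the shares were 81.5% in plasmacytoid dendritic cells (median 772 UMIs) and 12.9% in late erythroid cells (median 2602 UMIs).

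Irf4, Irf5 and Irf7 were each highest in dendritic cells, monocytes or the B lineage. Irf4 (ENSMUSG00000021356, mm10 chromosome 13), which plasma cells and a subset of conventional dendritic cells need, was rare, with 39 UMIs in the whole library. It reached 61.1 CPM (26.4 to 120, 8 UMIs) in B lineage cells, whose leading genes included Jchain and Mzb1 of antibody-secreting cells and Ebf1, Vpreb3, Pax5 and Ms4a1 of B cell precursors and B cells, and 45.1 CPM (16.6 to 98.2, 6 UMIs) in conventional dendritic cells. The intervals of these classes overlapped. Irf4 was 14.8 CPM (9 UMIs) in Gngt2 Clec4a3 monocytes and had 0 UMIs in late erythroid cells, maturing neutrophils and natural killer and innate lymphoid cells, where 3 counts would be 3.60, 4.50 and 17.9 CPM.

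Irf5 (ENSMUSG00000029771, mm10 chromosome 6) was mostly in monocytes. It stood at 177 CPM (146 to 214) in Gngt2 Clec4a3 monocytes, which resemble patrolling monocytes by their markers Cx3cr1 and Nr4a1, at 135 CPM (80.2 to 214) in conventional dendritic cells and at 129 CPM (110 to 150) in classical monocytes, 3 classes with overlapping intervals. Classical monocytes held 41.4% and Gngt2 Clec4a3 monocytes 26.9% of its 401 UMIs. Plasmacytoid dendritic cells had 59.3 CPM (39.4 to 85.7), and neutrophil, erythroid and basophil classes 12.6 CPM or less.

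Irf7 (ENSMUSG00000025498, mm10 chromosome 7), the factor that amplifies type I interferon, was highest in 3 classes whose CPM intervals overlapped: 165 CPM (104 to 250) in conventional dendritic cells, 154 CPM (125 to 189) in Gngt2 Clec4a3 monocytes and 148 CPM (116 to 187) in plasmacytoid dendritic cells. At 1000 UMIs a cell, an Irf7 UMI was seen in 11.1% of 45 conventional dendritic cells (3.71 to 24.1%), 14.9% of 121 Gngt2 Clec4a3 monocytes (9.06 to 22.5%) and 3.06% of 98 plasmacytoid dendritic cells (0.636 to 8.69%), so at equal depth the monocytes and the plasmacytoid cells had intervals apart. With only cells of at least 1000 UMIs kept and clustered again, plasmacytoid dendritic cells had 59.3 CPM. Classical monocytes had 23.3 CPM (15.7 to 33.3), so the intervals of the monocyte classes lay apart for Irf7 and overlapped for Irf5. Granulocyte-monocyte progenitors had 7.33 CPM (3.52 to 13.5), and basophils and mast cells 0 UMIs, where 3 counts would be 22.4 CPM.

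Irf2 (ENSMUSG00000031627, mm10 chromosome 8) also differed between the monocyte classes. It was 181 CPM (149 to 218) in Gngt2 Clec4a3 monocytes and 93.3 CPM (77.4 to 112) in classical monocytes, with intervals apart. Conventional dendritic, natural killer and innate lymphoid, and B lineage cells lay between 122 and 128 CPM, and immature neutrophils, granulocyte-monocyte progenitors and late erythroid cells between 42.0 and 46.2 CPM. Irf1 (ENSMUSG00000018899, mm10 chromosome 11) was 50.9 CPM (32.6 to 75.7) in plasmacytoid dendritic cells and 49.3 CPM (33.3 to 70.4) in Gngt2 Clec4a3 monocytes. Its lowest value was 4.80 CPM (1.31 to 12.3, 4 UMIs) in late erythroid cells. Irf9 (ENSMUSG00000002325, mm10 chromosome 14) ranged between 18.0 CPM in maturing neutrophils and 97.7 CPM (52.0 to 167) in conventional dendritic cells, with 72.0 CPM in plasmacytoid dendritic cells. Irf3 (ENSMUSG00000003184, mm10 chromosome 7), which is stored ready-made and activated by phosphorylation, was the flattest member, between 14.9 CPM in basophils and mast cells and 41.8 CPM in natural killer and innate lymphoid cells, and no class of at least 50 cells was 2-fold above the rest.

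**Figure D1:**
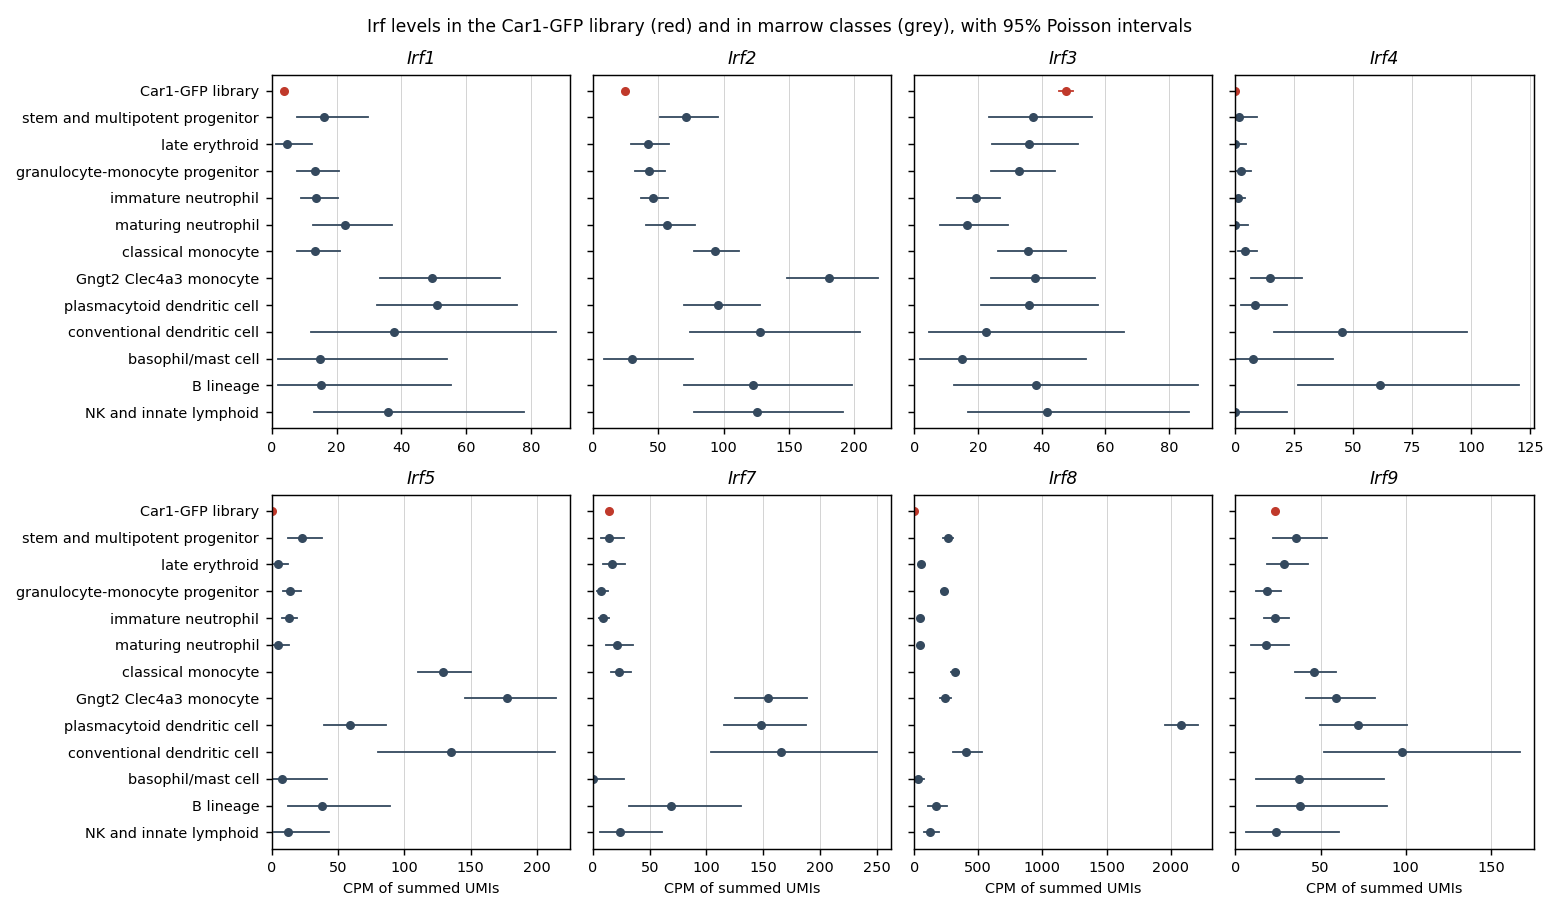
CPM of each Irf member (x axis, one panel a gene, each with its own scale) in the Car1-GFP library (red) and in the 12 marrow classes of at least 50 cells (grey), with points for the level and lines for the 95% Poisson interval. Irf8 stands apart at 2081 CPM in plasmacytoid dendritic cells, Irf5 and Irf7 are high in Gngt2 Clec4a3 monocytes and conventional dendritic cells, and Irf3 is nearly level.

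Among classes of at least 50 cells, counted at a size of at least 2-fold over the remaining marrow cells, 5 of the 8 members were higher in Gngt2 Clec4a3 monocytes (Irf1, Irf2, Irf4, Irf5 and Irf7), where 12.5% of all 10429 measured genes passed that size. In plasmacytoid dendritic cells 4 of 8 were higher (Irf1, Irf7, Irf8 and Irf9), against 14.7% of all genes. In conventional dendritic cells 4 of 8 were higher (Irf4, Irf5, Irf7 and Irf9), against 14.7% of all genes. None of the 8 was 2-fold lower in any of these 3 classes. In granulocyte-monocyte progenitors 4 of 8 were at least 2-fold lower, against 14.4% of all genes, and in late erythroid cells 5 of 8, against 24.9%. By CPM, the highest class of 3 members, Irf1, Irf4 and Irf8, was the one given above in all 8 alternatives tried. For Irf1 the shares at equal depth did not put that class first. With only cells of at least 1000 UMIs kept and clustered again, the highest class matched for just these 3 of the 8 members. Plasmacytoid Irf8 was 1061 CPM there. No class of at least 50 cells was named Gngt2 Clec4a3 monocyte or conventional dendritic cell there, and the highest Irf1, Irf7 and Irf9 of any class were 31.2, 59.3 and 46.8 CPM, all in plasmacytoid dendritic cells.

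The classes were not uniform inside. Sub-clusters were made within each class after the data had been seen, again without the Irf genes. Irf8 in granulocyte-monocyte progenitors was 382 CPM (337 to 430) in 263 cells led by Ly86, F13a1 and Klf4, genes of the monocyte and dendritic side, and 38.9 CPM (22.7 to 62.3) in 229 cells led by Fcnb and Cebpe, genes of neutrophil granule formation. A sub-cluster of 138 cells led by Hyou1 had 137 CPM (92.3 to 195). The highest and lowest of these differed 9.80-fold, and the lowest lay at the level of the neutrophil classes.

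In stem and multipotent progenitors Irf8 was 496 CPM (415 to 588) in 163 cells led by histone genes of dividing cells and by Ly6d, a lymphoid progenitor marker, and 92.2 CPM (61.2 to 133) in 267 cells led by Ltb and Car1. Dividing plasmacytoid dendritic cells, led by histone genes and Top2a, had 1571 CPM of Irf8 (1372 to 1790) against 2474 CPM (2295 to 2662) in the sub-cluster led by H2-Eb1, Cxcl12 and Ly6a. Irf7 differed in the same direction there, with 34.9 CPM (11.3 to 81.4, 5 UMIs) in the dividing cells and 215 CPM (165 to 276) in the H2-Eb1 sub-cluster. The dividing cells were deeper, with a median of 1053 UMIs against 740, and the part of depth in these differences was not tested.

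Conventional dendritic cells differed inside in Irf8 as well. Irf8 was 656 CPM (468 to 893) in 52 dividing cells led by Top2a and Stmn1, among whose leading genes was Id2, and 194 CPM (106 to 326) in 80 cells led by Trps1 and Picalm, among whose leading genes were also Lyz2 and F13a1, which monocytes express. Irf4 had 0 UMIs in the first, with an interval up to 60.5 CPM, and 83.3 CPM (30.6 to 181) from 6 UMIs in the second, so its intervals overlapped. Irf5 and Irf7 had overlapping intervals between them.

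**Figure D2:**
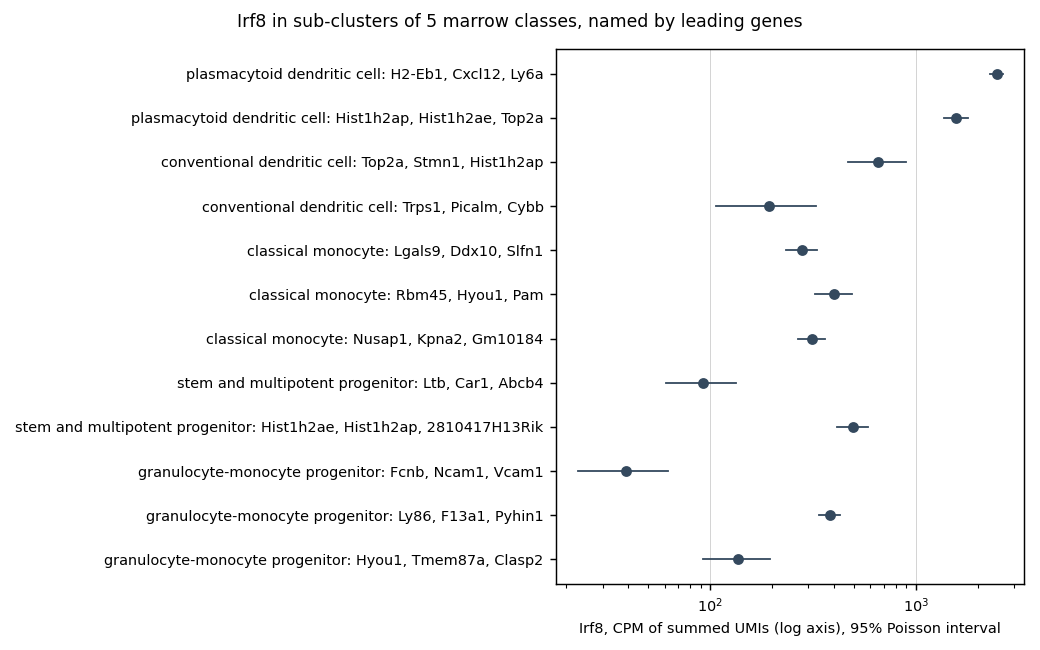
Irf8 CPM (log axis) with 95% Poisson intervals in sub-clusters of at least 50 cells of 5 marrow classes, each named by class and its 3 leading genes. Plasmacytoid sub-clusters lie at 1571 CPM and above, and the granulocyte-monocyte progenitors run between 38.9 and 382 CPM.

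To describe how Irf8 varied within granulocyte-monocyte progenitors without sub-clusters, cells were thinned to 1000 UMIs and divided by whether they held an Irf8 UMI. That gave 98 cells with and 441 without, and 91 shallower cells were left out. Of 10 genes on the monocyte and dendritic side, 10 were above and 0 below a log2 ratio of 0 in cells with Irf8, with a median of 0.62. At least 2-fold higher were 2 of the 10, Ly86 (1.17, 0.09 to 2.18), a partner of a Toll-like receptor relative, and Klf4 (1.11, -0.08 to 2.20), a monocyte transcription factor, against 4.38% of all 3307 measured genes. The other 8 lay between 0.03 and 0.90, the highest of them F13a1 (0.90, 0.28 to 1.49), a coagulation factor of monocytes, then Csf1r (0.66), Zeb2 (0.65), Id2 (0.58), Psap (0.57), Ly6c2 (0.21), Cd74 (0.12) and Ctsh (0.03).

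Of 10 genes on the neutrophil side, 10 were below 0, with a median of -0.77. At least 2-fold lower were 3 of the 10, against 10.1% of all measured genes: Cebpe (-1.79, -3.46 to -0.51), which drives secondary granule formation, Fcnb (-1.20, -2.11 to -0.41), a ficolin, and Ms4a3 (-1.11, -1.57 to -0.68), a marker of these progenitors. Elane, the neutrophil elastase gene, was 3235 CPM in cells with Irf8 and 6279 CPM in cells without, a log2 ratio of -0.96 (-1.13 to -0.79). Gfi1 (-0.89), Mpo (-0.66), Ctsg (-0.58), Prtn3 (-0.48), Ltf (-0.31) and Camp (-0.23) were closer to 0. The median of all measured genes was 0.00. Thinned to 500 UMIs, 14 of the 20 list members were still on those sides of 0, and 17 to 19 were so under other clusterings and another draw. Both lists were chosen with earlier results of these data known. Their members Ly86, F13a1, Klf4, Fcnb and Cebpe were also leading genes of the sub-clusters above, so this split is not independent of them.

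**Figure D3:**
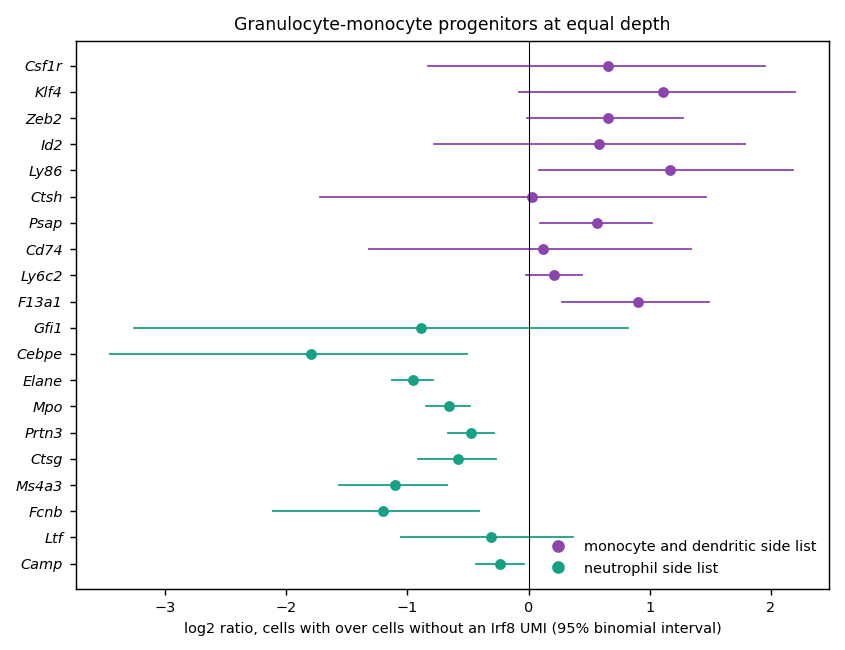
Log2 ratio (x axis) of CPM in granulocyte-monocyte progenitors with over without an Irf8 UMI, at 1000 UMIs a cell, with 95% binomial intervals. All 10 genes of the monocyte and dendritic list (purple) lie right of 0 and all 10 of the neutrophil list (green) left of it, though 9 of the 20 intervals include 0.

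The genes that work with the family were counted over the same classes. Of the interferon-stimulated list, 17 of 19 measured members were at least 2-fold higher in Gngt2 Clec4a3 monocytes, against 12.5% of all genes, with a median log2 ratio of 2.75 against -0.03 for all genes. Ifi27l2a, an interferon-induced gene, was 3086 CPM there, Bst2, the tetherin gene, 276 CPM, Isg15, a ubiquitin-like modifier, 169 CPM, Zbp1, a nucleic acid sensor, 140 CPM and Rtp4 123 CPM. In conventional dendritic cells 11 of 19 were higher, against 14.7% of all genes, among them Ifi27l2a at 1999 CPM. In plasmacytoid dendritic cells 7 of 19 were higher and 4 lower, against 14.7% and 14.8% of all genes. Bst2, a known surface protein of these cells, was 2456 CPM there. In granulocyte-monocyte progenitors 16 of 19 were at least 2-fold lower, against 14.4% of all genes, and in late erythroid cells 15 of 19, against 24.9%.

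The DNA-binding partners split by class. Spib, an Ets factor that plasmacytoid and B cells need, was 331 CPM in plasmacytoid dendritic cells and 160 CPM in B lineage cells, and 22.5 CPM or less in the other classes of 50 cells or more. Batf3, a partner of Irf8 in cross-presenting dendritic cells, was 143 CPM in conventional dendritic cells and 34.5 CPM in Gngt2 Clec4a3 monocytes. Spi1, also called PU.1, was 396 CPM in Gngt2 Clec4a3 monocytes and 89.0 CPM in plasmacytoid dendritic cells. Stat2 was 57.2 CPM in plasmacytoid dendritic cells, against 12.5 CPM in granulocyte-monocyte progenitors.

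Upstream of the factors, 8 of 14 measured sensors and kinases were at least 2-fold higher in Gngt2 Clec4a3 monocytes, against 12.5% of all genes. In plasmacytoid dendritic cells 4 of 14 were higher and 3 lower, against 14.7% and 14.8% of all genes. The median log2 ratio was 0.18 against 0.11 for all genes. Plasmacytoid dendritic cells had 305 CPM of Unc93b1, the chaperone of endosomal Toll-like receptors, and 50.9 CPM of Tlr7, a receptor for single-stranded RNA. Among interferon receptors and Jak kinases, 5 of 7 were higher in conventional dendritic cells, 4 of 7 in plasmacytoid dendritic cells and 3 of 7 in Gngt2 Clec4a3 monocytes. Of all genes 14.7%, 14.7% and 12.5% were higher in these classes. Of the corepressors that bind Irf2, 1 of 3 was higher in Gngt2 Clec4a3 monocytes, against 12.5% of all genes, and none in either dendritic class. Conventional dendritic cells had 1 UMI of Irf2bp1 (log2 ratio -1.09, -6.41 to 1.41) and 0 UMIs of Irf2bpl, too few to call either lower. Of the 8 interferon genes listed, Ifna1, Ifna2, Ifna4, Ifna5, Ifnl2 and Ifnl3 had 0 UMIs in both libraries, Ifnb1 had 1 marrow UMI and Ifng 8.

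By the Pearson correlation of log2(CPM + 10) over the 12 marrow classes, among 6868 genes of at least 100 UMIs, the genes most like Irf8 were Khk (0.97), Pkib (0.94) and Itpr1 (0.93). Those most like Irf5 were Bri3 (0.96), Gm15987 (0.96) and Ctss (0.96), those most like Irf7 were Btg2 (0.93), Rala (0.92) and Dnajb14 (0.92), and those most like Irf9 were Cd2ap (0.95), Pip4k2a (0.93) and H2-DMa (0.92). Irf1 was most like Nfkbiz (0.94) and Ier5 (0.92), Irf2 most like Klf2 (0.91), Rel (0.91) and Pik3cd (0.90), and Irf3 most like Szrd1 (0.95), Mrpl16 (0.94) and Sap30bp (0.93). The classes come from a single library and share its free RNA, and of the 21 genes that were the 3 most alike of a member only 8 were named again with rank correlation.

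Most of the family was lower in the Car1-GFP library than in the marrow library. At least 2-fold lower were 6 of the 8 members, against 32.7% of the 12076 genes measured with at least 20 UMIs over both libraries. None was 2-fold higher, against 22.5% of all genes. The median log2 ratio of the members was -1.98 with Irf4 at its bound, and -0.23 over all genes. Scaling by TMM or DESeq2 size factors added 0.22 or 0.21 to every log2 ratio and left 6 members lower. Fewer cells that use a gene and less RNA of it per cell cannot be told apart in these summed values.

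Irf8 was 2.01 CPM (1.61 to 2.48, 86 UMIs) in Car1-GFP cells, against 276 CPM (265 to 288, 2292 UMIs) in marrow cells. This was 137-fold lower, with a log2 ratio of -7.10 (-7.43 to -6.79). Irf5 was 0.210 CPM (0.0962 to 0.399, 9 UMIs) in Car1-GFP cells, against 48.3 CPM (43.7 to 53.3) in marrow cells, a log2 ratio of -7.84 (-8.98 to -6.90). Irf4 had 0 UMIs in 2400 Car1-GFP cells and 39 in marrow cells, which places it at least 67.0-fold lower against a floor of 3 counts in the Car1-GFP library. Few UMIs of these 3 genes were thus seen in Car1-GFP cells, although 42795219 UMIs were counted there, against 8303633 in marrow cells.

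The other members were present in Car1-GFP cells. Irf1 was 3.69 CPM in Car1-GFP cells, against 19.3 CPM in marrow cells, a log2 ratio of -2.38 (-2.71 to -2.06). Irf2 was 24.2 CPM in Car1-GFP cells, against 71.8 CPM in marrow cells (-1.57, -1.72 to -1.42), and Irf7 was 13.7 CPM in Car1-GFP cells, against 36.1 CPM in marrow cells (-1.40, -1.60 to -1.19). Irf9 was 23.4 CPM in Car1-GFP cells and 34.6 CPM in marrow cells (-0.56, -0.75 to -0.37), within 2-fold. Irf3 was the only member with a higher level in the Car1-GFP library, 47.6 CPM against 30.5 CPM in the marrow library (0.64, 0.45 to 0.84), also within 2-fold. With only cells of at least 1000 UMIs, Irf7 was -0.65 and Irf4 had under 20 UMIs, which left 4 members lower.

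At 1000 UMIs a cell, 0.25% of 2400 Car1-GFP cells (0.0918 to 0.543%) and 15% of 3271 marrow cells (13.8 to 16.3%) had an Irf8 UMI. Irf3 was seen in 4.0% of Car1-GFP cells (3.25 to 4.86%) and 2.57% of marrow cells (2.05 to 3.17%), and Irf2 in 2.42% of Car1-GFP cells (1.84 to 3.11%) and 6.08% of marrow cells (5.29 to 6.96%). Unthinned, Irf3 was in 53.5% of Car1-GFP cells and 3.89% of marrow cells, a gap that the unequal depth of the libraries enters. At equal depth the Car1-GFP share lay under the marrow share with intervals apart for 6 of the 8 members (Irf1, Irf2, Irf4, Irf5, Irf8 and Irf9), and for 4 at 2000 UMIs or with another draw. For Irf9 the Car1-GFP interval ended at 2.55% and the marrow interval began at 2.58%. The share of all genes with intervals apart in this way was not counted, so the 6 are not read as particular to the family. Irf7 was in 1.42% of Car1-GFP cells (0.983 to 1.97%) and 2.29% of marrow cells (1.81 to 2.87%), with overlapping intervals.

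The Irf8 UMIs of the Car1-GFP library were concentrated in very few cells. Only 5 cells held 3 or more, with 16, 11, 7, 4 and 3, and these 5 had 41 of the 86 UMIs (47.7%). All 5 lay in a cluster of 195 cells led by S100a8, S100a9, Camp, Ngp and Elane, which got no class name. In that cluster S100a8 was 619 CPM, Elane 181 CPM and Mpo 111 CPM. Markers of granulocyte-monocyte progenitors and classical monocytes summed to 5915 CPM in the 5 cells and 93.8 CPM in the other 2395 cells. Irf8 was 1.05 CPM in those 2395 cells, of which 39 had 1 UMI and 3 had 2. Without the cluster of 195 cells the log2 ratio of Irf8 to the marrow library was -8.07.

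The erythroid cells of the libraries were set side by side because the Car1-GFP library was mostly erythroid by its markers. There were 1576 Car1-GFP cells in clusters named erythroid progenitor or late erythroid, and 271 marrow cells in the cluster named late erythroid, which also held a Kit-expressing sub-cluster of 168 cells. Of 6 members measured there, 1 was at least 2-fold lower in Car1-GFP erythroid cells, against 28.0% of all 10733 measured genes. This was Irf8, at 0.881 CPM (0.599 to 1.25) in Car1-GFP erythroid cells, against 49.2 CPM (35.3 to 66.8) in marrow erythroid cells, a log2 ratio of -5.80 (-6.53 to -5.10). The marrow erythroid level was within the intervals of the neutrophil classes, in cells where S100a8 stood at 8720 CPM. The part of free RNA in this difference was not tested.

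The remaining members were within 2-fold. Irf2 was 22.7 CPM in Car1-GFP erythroid cells, against 42.0 CPM in marrow erythroid cells (-0.89, -1.38 to -0.36). Irf1 was 2.59 CPM in Car1-GFP erythroid cells, against 4.80 CPM from 4 UMIs in marrow erythroid cells (-0.89, -2.30 to 1.01). Irf3 was 44.3 CPM in Car1-GFP erythroid cells, against 36.0 CPM in marrow erythroid cells (0.30, -0.22 to 0.87). Irf7 was 13.3 CPM in Car1-GFP erythroid cells, against 16.8 CPM in marrow erythroid cells (-0.34, -1.10 to 0.54), and Irf9 22.2 CPM in Car1-GFP erythroid cells, against 28.8 CPM in marrow erythroid cells (-0.38, -0.96 to 0.27). The intervals of Irf1, Irf3, Irf7 and Irf9 included 0. Irf5 had 3 UMIs in Car1-GFP erythroid cells and 4 in marrow erythroid cells, and Irf4 had 0 in both, too few to measure. TMM or DESeq2 scaling added 0.32 to each of these log2 ratios and left 1 member lower.

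**Figure D4:**
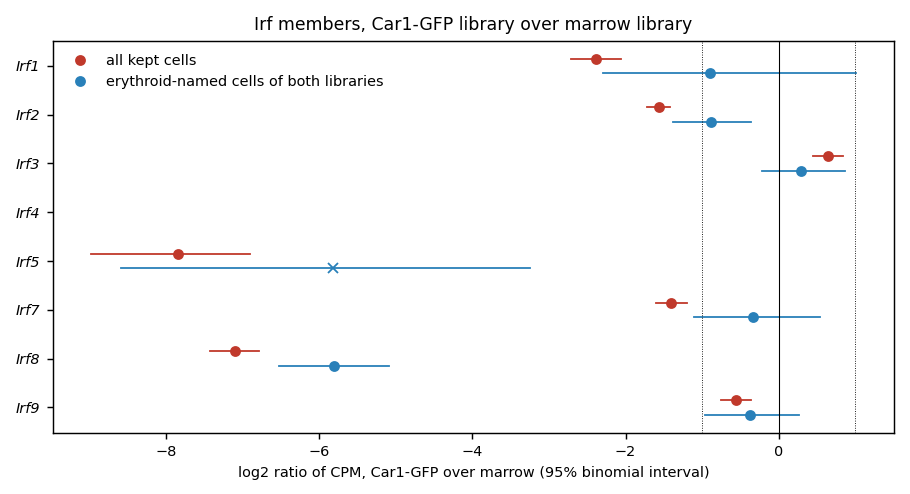
Log2 ratio of CPM, Car1-GFP over marrow (x axis), for each member over all kept cells (red) and over erythroid-named cells (blue), with 95% binomial intervals. Dotted lines mark 2-fold, the cross a ratio from under 20 UMIs, and Irf4 has no point since its Car1-GFP count was 0. Irf8 lies beyond -5 in both and Irf5 over all cells, with too few UMIs to measure among erythroid cells, while the other measured members lie within 2-fold among erythroid cells.

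Some members differed between erythroid stages of the Car1-GFP library. Late erythroid clusters (254 cells), high in Slc4a1, the anion exchanger gene of red cells, were compared with erythroid progenitor clusters (1322 cells). Irf2 was 33.9 CPM in late erythroid cells, against 20.8 CPM in progenitors, a log2 ratio of 0.70 (0.45 to 0.95). Irf7 was 17.2 CPM in late erythroid cells, against 12.7 CPM in progenitors (0.44, 0.08 to 0.78). Irf3 was 32.7 CPM in late erythroid cells, against 46.2 CPM in progenitors (-0.50, -0.74 to -0.26), and Irf1 was 1.20 CPM from 6 UMIs in late erythroid cells, against 2.82 CPM in progenitors (-1.23, -2.72 to -0.05). Irf9 was 21.8 CPM in late erythroid cells and 22.2 CPM in progenitors (-0.03, -0.34 to 0.26), and Irf8 was 0.798 CPM from 4 UMIs in late erythroid cells, against 0.895 CPM in progenitors (-0.16, -2.14 to 1.36). Among these 6 members Irf1 alone passed 2-fold. The share of all genes that did so between these stages was not counted, so these differences are not read as particular to the family. Slc4a1 itself was 122 CPM in late erythroid cells, against 15.5 CPM in progenitors.

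A cluster of 612 cells led by Vim, Plac8, Sox4 and Egr1, with 189 CPM of Gata2, a factor of early and mast cell progenitors, got no class name and was shallower than the progenitor clusters of over 50 cells, with a median of 6731.5 UMIs. It had the highest Irf3 (64.2 CPM, 57.2 to 71.9) and Irf9 (30.7 CPM, 25.9 to 36.2) of the 8 clusters of at least 50 cells, and Irf1 at 7.26 CPM. Its Irf3 and Irf9 intervals overlapped those of other clusters, among them the S100a8 cluster of 195 cells, at 59.1 and 25.8 CPM. Its Irf2, 32.9 CPM (27.9 to 38.5), and Irf7, 16.2 CPM (12.8 to 20.3), had intervals that overlapped those of the late erythroid cluster, at 34.5 and 17.5 CPM. The lowest Irf3 of these clusters was 33.5 CPM in the late erythroid cluster, where Irf2 was highest at 34.5 CPM. Irf1 was highest, at 10.7 CPM, in the S100a8 cluster of 195 cells and lowest, at 1.23 CPM, in the late erythroid cluster. For 6 members, Irf1, Irf2, Irf3, Irf7, Irf8 and Irf9, the intervals of the highest and lowest cluster did not overlap. The highest and lowest were picked among 8 for each. The share of all genes with intervals apart in this way was not counted, so the 6 are not read as particular to the family.

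**Figure D5:**
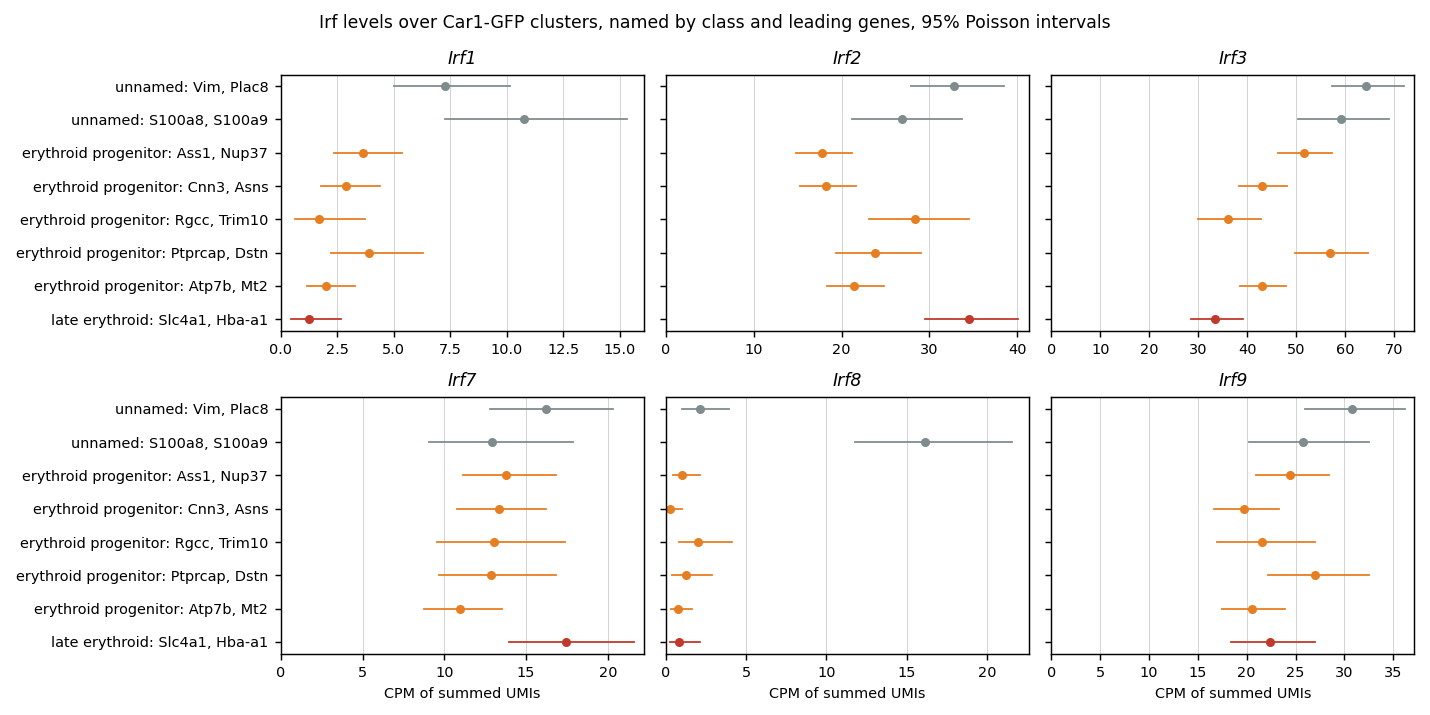
CPM (x axis, own scale per panel) of the 6 members with at least 20 UMIs in the 8 Car1-GFP clusters of at least 50 cells, named by class and 2 leading genes, with 95% Poisson intervals; grey, orange and red mark unnamed, erythroid progenitor and late erythroid clusters. Irf3 runs between 33.5 and 64.2 CPM with the late erythroid cluster lowest, Irf2 is highest there at 34.5 CPM, and Irf8 is above 3 CPM in the S100a8 cluster alone.

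Most measured genes of the pathway lists were also lower in Car1-GFP cells, where 32.7% of all genes were at least 2-fold lower and 22.5% higher. Of the DNA-binding partners, 6 of 7 were at least 2-fold lower, with a median log2 ratio of -2.41. Spi1 was 11.8 CPM in Car1-GFP cells, against 204 CPM in marrow cells, and Ikzf1, a lymphoid and myeloid zinc finger factor, 80.8 CPM in Car1-GFP cells, against 181 CPM in marrow cells. Batf, at 9.84 CPM in Car1-GFP cells and 18.5 CPM in marrow cells, was within 2-fold. Of the corepressors 2 of 3 were lower.

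Of 14 measured sensors and kinases, 11 were lower and 1 higher, Mavs, the mitochondrial adaptor of RNA sensing, at 14.7 CPM in Car1-GFP cells, against 7.23 CPM in marrow cells. Myd88, an adaptor of Toll-like receptors, was 15.1 CPM in Car1-GFP cells and 29.5 CPM in marrow cells, within 2-fold. Of the interferon receptors and Jak kinases 4 of 7 were lower. Ifngr1, a subunit of the interferon gamma receptor, was within 2-fold at 174 CPM in Car1-GFP cells, against 94.4 CPM in marrow cells, whereas its partner subunit Ifngr2 was lower at 8.06 CPM in Car1-GFP cells, against 62.1 CPM in marrow cells.

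Of 19 measured interferon-stimulated genes, 13 were lower and 1 higher, with a median log2 ratio of -2.08. Bst2 was 57.4 CPM in Car1-GFP cells, against 242 CPM in marrow cells, and Isg15 8.72 CPM in Car1-GFP cells, against 34.3 CPM in marrow cells. Oasl1, an inhibitor of Irf7 translation in mice, was the higher one, at 7.66 CPM in Car1-GFP cells, against 2.89 CPM in marrow cells. Ifi27l2a, chosen here after its values were seen, was 0.935 CPM in Car1-GFP cells, against 638 CPM in marrow cells. Between erythroid cells alone 7 of 16 measured interferon-stimulated genes were lower and 2 higher, 3 of 10 sensors and kinases were lower and none higher, and 0 of 7 interferon receptors and Jak kinases were lower and 1 higher, against 28.0% lower and 16.7% higher over all genes.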

How the data were processed

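The authors deposited raw UMI counts for every gene and cell barcode, made with Cell Ranger 2.1 on mm10, with Seurat 2 also named, per the submitters' processing notes. Their filters were not given in the sources used here. Cells with under 500 UMIs or at least 10% mitochondrial UMIs were left out, as were 171 doublets called by Scrublet in the marrow library. Its 9 calls (0.375%) in the Car1-GFP library were not used. Each library was clustered in scanpy 1.11.5 with 2000 variable genes, 30 components and Leiden resolution 1. Clusters took the class of 19 with the highest mean log2 marker ratio to the other marrow cells (for Car1-GFP clusters, to all marrow cells), given at least 3 markers 2-fold up and no other class with more of the 10 leading genes. A Car1-GFP cluster with 3 markers of a non-erythroid class 2-fold above its own library stayed unnamed. Marker genes Iglc2, Igkc and Trbc2 and the list member Mx2 had no row.

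CPM carry exact Poisson, shares exact Clopper-Pearson and ratios exact binomial intervals at 95%; steps were tested on simulated data. Scaling factors came from edgeR 4.0.16 and DESeq2 1.42.0. Genes named were the members, the 3 most alike, up to 5 of a list by CPM in the cells discussed, and both progenitor lists. The members, lists and rules were chosen with earlier results of these data known, and the naming rule and sub-clusters after the clusters were seen. Coordinates are from GENCODE M21. Some genes that these rules name are not reported here.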

Additional observations from a re-analysis of the deposited data

How the results depend on the processing

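Of 47 recalculated counts, 42 stayed within 1.5 times the value reported. Of 221 recalculated single values 197 were counted as unchanged and 24 as moved. For library ratios and class levels, unchanged meant staying within the interval of the main value. None was counted as reversed. A library ratio could be so counted only if it was at least 2-fold in the main setting, and a class level could not. The 6 members lower in Car1-GFP cells were 4 at a 4-fold size and 4 with at least 1000 UMIs per cell. In erythroid cells the 1 member lower was 3 at a 1.5-fold size, where Irf1 and Irf2 joined Irf8, and 2 with no minimum of UMIs, where Irf5 joined. The Irf1 ratio there rests on 4 marrow UMIs. Shares of all genes were counted at 2-fold only, not at 1.5-fold or 4-fold. With at least 1000 UMIs per cell the highest marrow class matched for 3 of 8 members, with fewer cells in the shallow dendritic and monocyte classes. Of the 21 most alike genes, 12 were named again with a pseudocount of 1 CPM and 8 with rank correlation. Members with a lower share at equal depth were 6, and 4 at 2000 UMIs or with another draw. At Leiden resolution 0.5 no cluster was named Gngt2 Clec4a3 monocyte, so its count of interferon-stimulated genes could not be recomputed. No class of at least 50 cells had that name with another seed, where conventional dendritic cells had the highest Irf2, 130 CPM, and Irf5, 137 CPM, or with at least 1000 UMIs per cell. No paired analysis was possible because each group has 1 library. Irf4 rests on 39 UMIs, and differences of mice, sort or preparation cannot be told apart from those of the reporter library.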

Other observations

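A marrow cluster of 35 cells without a class name, led by BC147527, Cd74 and H2-Ab1, had 385 CPM of Irf8 (210 to 646, 14 UMIs), 247 CPM of Irf5 (113 to 470, 9 UMIs) and 137 CPM of Irf9 (44.6 to 321, 5 UMIs). Macrophages, 26 cells with C1qa and Vcam1, had 206 CPM of Irf8 (82.9 to 425, 7 UMIs). A Car1-GFP cluster of 17 cells led by Gzmb, with 349 CPM of Gata2, had 23.8 CPM of Irf1 from 3 UMIs and 0 UMIs of Irf8.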
